A study of Mus musculus with 32 samples.

Results

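The Sertoli cell is the somatic cell that lines the seminiferous tubule and nurses the germ cells, and 10 of its transcription factor, hormone and ligand genes were followed here in RNA from preparations labelled as germ cells. These genes were named as Sertoli cell factors and hormones rather than picked by a cut on their values, but with earlier results of these data known. All 10 were found among the 20368 genes of the juvenile gene table. They comprised the transcription factors Sox9, Wt1 and Gata4, the hormone genes Amh, Inha and Inhbb, the hormone receptor Fshr, and the secreted ligands Gdnf, Kitl and Dhh.

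The germ cells came from C57BL/6J males with no treatment named, 1 mouse per library. There were 3 mice at 8 days post partum (dpp) and 5 at each of 10, 12, 14, 16 and 18 dpp, an interval in which the first wave of spermatogenesis goes from spermatogonia to late pachytene and diplotene spermatocytes. The study had collected more mice at 8 dpp. It omitted some after inspecting their cytology and RNA, since they matched the others of that age poorly, likely from too few cells. The spread at 8 dpp is therefore that of the mice kept. Adult spermatocytes were 4 samples, each pooled from 6 mice of 9 weeks and enriched for pachytene and diplotene cells by sedimentation at unit gravity. All of these preparations came from tubules digested with enzymes after washes meant to remove interstitial cells, and no selection by a marker is described. The labels give an average purity of about 90% for the adult samples, and for the juvenile samples the study also counted germ cells among all stained cells, which was not analysed here. RNA abundance was given as TPM, a unit that is corrected for transcript length and scaled to the same total in every library, so that levels of different genes can be set side by side. No read counts can be taken from it, so depth is unknown for all libraries and the errors given are the spread between mice.

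In the fetal testis Sox9, with Wt1 and Gata4, sets and keeps Sertoli cell identity, and Sertoli cells then secrete anti-Müllerian hormone (Amh), which makes the Müllerian duct regress and declines as the cells mature. Follicle-stimulating hormone acts on Sertoli cells through its receptor Fshr, and inhibin B, a dimer of the Inha and Inhbb products, feeds back on the pituitary. Gdnf maintains spermatogonial stem cells, Kitl (stem cell factor) acts through Kit on differentiating spermatogonia, and Dhh acts through Ptch1 on Leydig and peritubular cells.

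Sequences of 3 alternative segments are shown because 2 of the members, Wt1 and Kitl, are made in forms that differ by them and the deposited transcripts separate these forms. They were read from GENCODE M21 transcripts on GRCm38, plus strand. The alternative segment is in capitals and 20 bases of the neighbouring exons on each side are in lower case. The first is a 51-base exon of Wt1 at chr2:105144142-105144192. The second is the 9-base end of a later Wt1 exon at chr2:105170010-105170018, which adds the amino acids called KTS between zinc fingers. The third is an 84-base exon of Kitl at chr10:100080857-100080940, which encodes the site where the membrane-bound ligand is cut to release its soluble form.
Wt1 51-base exon: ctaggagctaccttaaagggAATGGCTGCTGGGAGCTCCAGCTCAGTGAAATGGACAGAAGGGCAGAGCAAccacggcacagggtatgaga
Wt1 9-base end: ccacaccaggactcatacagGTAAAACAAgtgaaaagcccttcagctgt
Kitl 84-base exon: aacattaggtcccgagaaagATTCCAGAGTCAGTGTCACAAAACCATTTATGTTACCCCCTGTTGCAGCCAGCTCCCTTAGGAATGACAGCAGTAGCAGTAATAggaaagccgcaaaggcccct

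All 10 genes were lower at 18 dpp than at 8 dpp. The mean TPM fell most for Amh, which was 6.02 times higher at 8 dpp, and least for Fshr, which was 1.40 times higher. In limma, with the 6 ages in 1 model and p-values adjusted over all 20368 genes, all 10 passed an adjusted p of 0.05 with lower values at 18 dpp, against 36.3% of all genes. Their median log2 fold change was -1.59, that of all genes tested -0.09. In each of the 10 genes every mouse at 18 dpp lay below every mouse at 8 dpp, which held for 32.0% of all genes. In such bulk RNA, fewer Sertoli cells and less RNA of the gene per Sertoli cell cannot be told apart.

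**Figure D1:**
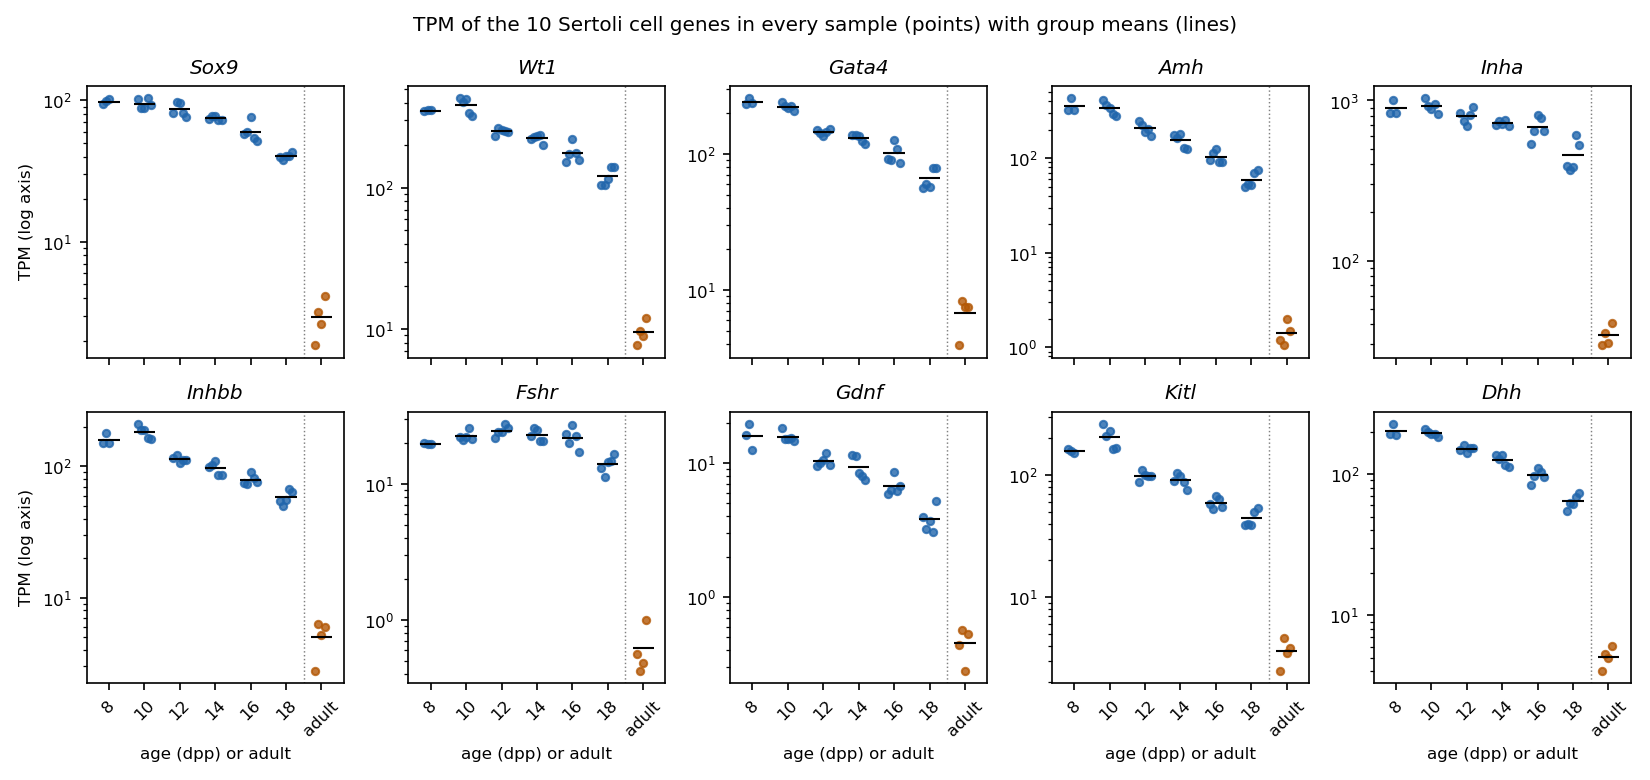
TPM (log axis) of each gene in every juvenile mouse (blue points, by age in dpp) and adult sample (orange points), with horizontal lines at group means; the dotted line separates the adult table, which was normalized on its own. Each of the 10 genes has its 5 mice of 18 dpp below its 3 mice of 8 dpp, and its 4 adult samples lowest.

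Among the transcription factors, Sox9 (ENSMUSG00000000567, chromosome 11 of GRCm38 from 112782224 to 112787760) had 93.6, 98.1 and 102 TPM in the mice of 8 dpp. At 18 dpp it had 39.6, 37.6, 40.7, 40.6 and 43.2 TPM in mice 1 to 5. The mice of 18 dpp were close together and far below those of 8 dpp, with a log2 fold change of -1.26 (SE 0.0920, limma adjusted p = 3.20e-12). Sox9 changed slowly at first, its means at the ages between being 94.7 ± 7.23, 86.5 ± 9.42, 74.5 ± 2.51 and 59.7 ± 9.44 TPM (SD, with n = 5 each).

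Wt1 (ENSMUSG00000016458, chromosome 2 from 105126529 to 105173616), a zinc finger factor needed to keep Sertoli cells differentiated, had 349, 357 and 353 TPM at 8 dpp and 105, 105, 115, 140.2 and 139 TPM at 18 dpp. Mice 4 and 5 of 18 dpp stood above mice 1 to 3 of that age but far below every mouse of 8 dpp (log2 fold change -1.55, SE 0.109, limma adjusted p = 1.59e-12). Gata4 (ENSMUSG00000021944, chromosome 14 from 63198922 to 63271692), a factor that binds the promoters of several Sertoli hormone genes, had 232, 254 and 236 TPM at 8 dpp and 56.2, 60.4, 57.2, 77.9 and 78.5 TPM at 18 dpp. The same mice 4 and 5 were highest at 18 dpp, and the log2 fold change was -1.86 (SE 0.109, limma adjusted p = 3.82e-14).

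Among the hormones, Amh (ENSMUSG00000035262, chromosome 10 from 80805243 to 80807648) had 323, 429 and 322 TPM at 8 dpp. It had 414, 363, 337, 294 and 276 TPM at 10 dpp and 247, 223, 189, 204 and 172 TPM at 12 dpp. No mouse of 12 dpp reached the lowest mouse of 10 dpp. At 14 dpp mice 1, 2, 3, 6 and 7 had 175, 165, 179, 129 and 125 TPM. At 16 dpp mice 1 to 5 had 95.4, 112, 124, 91.7 and 90.5 TPM, and at 18 dpp they had 49.1, 53.3, 51.5, 69.1 and 74.2 TPM. Amh thus lay lower in every mouse of 16 dpp than in any of 14 dpp, and lower again in every mouse of 18 dpp. The log2 fold change from 8 to 18 dpp was -2.58 (SE 0.158, limma adjusted p = 1.03e-13).

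Inha (ENSMUSG00000032968, chromosome 1 from 75507077 to 75510366), the inhibin alpha subunit, had the highest mean of the 10 genes in every group. It had 829.8, 1011 and 839 TPM at 8 dpp and 392, 368, 386, 611 and 528 TPM at 18 dpp. The spread at 18 dpp was wide because mice 4 and 5 lay well above mice 1 to 3, and the log2 fold change was -0.99 (SE 0.136, limma adjusted p = 3.54e-07). Inhbb (ENSMUSG00000037035, chromosome 1 from 119415465 to 119422248), the beta B subunit, fell further, from 150.3, 179 and 152 TPM at 8 dpp to 54.7, 49.9, 55.1, 67.2 and 63.6 TPM at 18 dpp (log2 fold change -1.45, SE 0.10, limma adjusted p = 1.09e-12).

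Fshr (ENSMUSG00000032937, chromosome 17 from 88984952 to 89200675) was the member that changed least. It had 19.8, 19.6 and 19.5 TPM at 8 dpp, 22.1, 20.96, 22.0, 25.6 and 21.4 TPM at 10 dpp and 21.5, 24.0, 24.0, 27.4 and 25.7 TPM at 12 dpp. At 14 dpp mice 1, 2, 3, 6 and 7 had 22.4, 25.6, 24.7, 20.6 and 20.6 TPM, and at 16 dpp mice 1 to 5 had 23.0, 19.9, 27.0, 22.2 and 17.0 TPM. The mice of 10 to 16 dpp overlapped each other, and every mouse of 10 dpp lay above those of 8 dpp, although that step did not pass the test (log2 fold change 0.18, SE 0.118, limma adjusted p = 0.629). At 18 dpp the values dropped to 13.1, 11.1, 14.5, 14.6 and 16.7 TPM, below every mouse of 16 dpp. From 8 to 18 dpp the log2 fold change of Fshr was -0.47 (SE 0.118, limma adjusted p = 0.000968).

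Among the ligands, Kitl (ENSMUSG00000019966, chromosome 10 from 100015630 to 100100416) had 165, 158 and 153 TPM at 8 dpp and 262, 208, 231, 164 and 166 TPM at 10 dpp. Mice 1 to 3 of 10 dpp were far above mice 4 and 5, which overlapped the mice of 8 dpp. At 12 dpp Kitl had 88.5, 111, 99.9, 97.7 and 98.6 TPM, below every earlier mouse, and at 18 dpp it had 39.0, 40.1, 39.2, 49.97 and 53.8 TPM. The log2 fold change from 8 to 18 dpp was -1.82 (SE 0.131, limma adjusted p = 2.38e-12).

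Gdnf (ENSMUSG00000022144, chromosome 15 from 7810846 to 7837575) had the lowest mean of the 10 genes in every group, with 16.1, 19.6 and 12.5 TPM at 8 dpp and 3.99, 3.21, 3.72, 3.05 and 5.19 TPM at 18 dpp (log2 fold change -1.82, SE 0.153, limma adjusted p = 4.84e-11). Dhh (ENSMUSG00000023000, chromosome 15 from 98891152 to 98898540) had 192, 225 and 188 TPM at 8 dpp and 54.9, 61.9, 61.2, 69.0 and 73.9 TPM at 18 dpp (log2 fold change -1.64, SE 0.0890, limma adjusted p = 9.72e-15). Both ligands had non-overlapping groups at these ages. Dhh was the only one of the 10 genes that the annotation overlaps with other genes, which were Rhebl1 on its own strand and Gm49442 on the opposite strand, and no strand-specific protocol is named, so reads could have been shared there.

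The order of levels was partly kept. At 8 dpp the means ran from Inha (893 TPM) over Amh (358), Wt1 (353), Gata4 (241), Dhh (202), Inhbb (160.2), Kitl (158) and Sox9 (97.8) to Fshr (19.6) and Gdnf (16.1). Amh and Wt1, Inhbb and Kitl, and Fshr and Gdnf overlapped between mice, while the other neighbours in this order did not. At 18 dpp the order was Inha (457 TPM), Wt1 (121), Gata4 (66.0), Dhh (64.2), Amh (59.4), Inhbb (58.1), Kitl (44.4), Sox9 (40.3), Fshr (14.0) and Gdnf (3.83). The values of each neighbouring pair from Gata4 down to Sox9 overlapped at that age.

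Shares within the members' own summed TPM, which do not depend on the scaling of a library, moved with age as well. Amh made up 14.3% ± 1.16 of that sum in the mice of 8 dpp and 6.40% ± 0.389 in those of 18 dpp (SD of 3 and 5 mice), and Inha went from 35.7% ± 0.940 to 48.9% ± 2.78. Fshr went from 0.789% ± 0.0670 to 1.52% ± 0.188. The mice of both ages did not overlap in any of these 3 shares. Nor did they overlap in the shares of Gata4, Gdnf, Kitl and Dhh, which were lower at 18 dpp. Those of Sox9, Wt1 and Inhbb overlapped. These shares are parts of 1 sum, so a rise of some can follow from a fall of others. When the genes were ordered by their log2 fold change, the ratio of neighbours differed without overlap between the mice of 8 and 18 dpp for Amh against Gata4 and for Inha against Fshr, and overlapped in the other 7 neighbouring pairs.

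**Figure D2:**
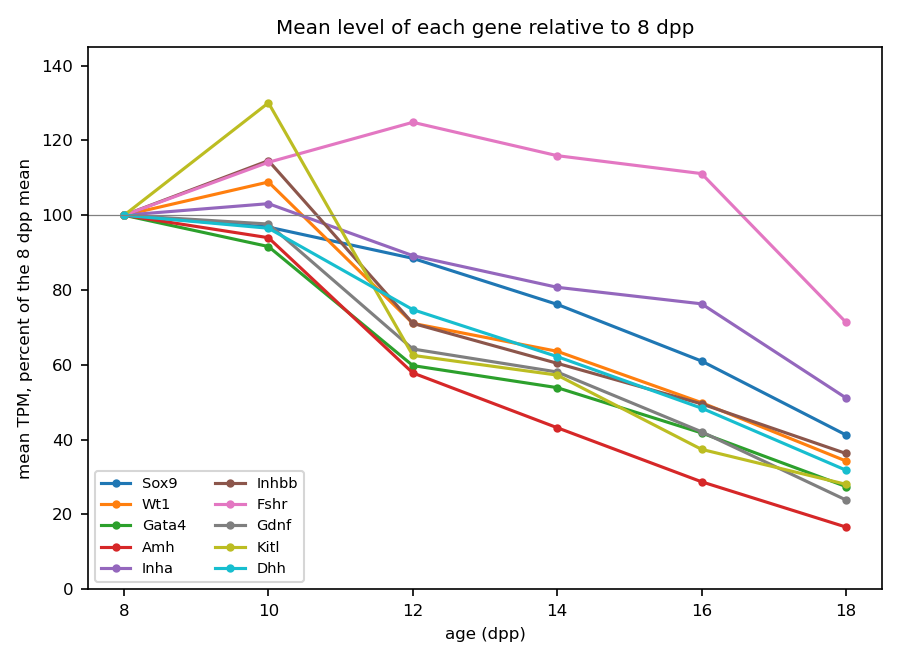
Mean TPM of each gene at each age (dpp), as a percentage of its mean at 8 dpp (grey line, 100%); each coloured line is 1 gene. Amh ends lowest at 16.6% and Fshr highest at 71.4%, and Kitl stands highest at 10 dpp.

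The fall was not even between ages. From 8 to 10 dpp 0 of the 10 genes passed the test in either direction, with 0.226% of all genes called lower and 0.977% called higher by limma. At an unadjusted p under 0.05 there was 1 member, Kitl (log2 fold change 0.35, SE 0.131, limma adjusted p = 0.244). With mice 1 to 3 of each age alone, Kitl passed at this step with a log2 fold change of 0.55 (limma adjusted p = 0.0122). Fshr, as given above, was the 1 member whose mice of 10 dpp all lay above those of 8 dpp, a pattern found in 6.20% of all genes.

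From 10 to 12 dpp 7 of the 10 genes fell, against 9.39% of all genes called lower. Kitl fell most, by 1.03 on the log2 scale (SE 0.114, limma adjusted p = 2.06e-07), followed by Amh with a log2 fold change of -0.69 (SE 0.137, adjusted p = 0.000495) and Inhbb with -0.68 (SE 0.0869, adjusted p = 2.09e-06). Gata4, Wt1, Gdnf and Dhh also fell, with log2 fold changes of -0.61, -0.60, -0.56 and -0.37. The 3 genes that did not pass were Inha (-0.21), Sox9 (-0.13) and Fshr (0.12). In the same 7 genes every mouse of 12 dpp lay below every mouse of 10 dpp, as in 7.64% of all genes.

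From 12 to 14 dpp 0 of the 10 genes passed, as few genes did anywhere (0.172% of all genes called by limma). At an unadjusted p under 0.05 there were 4 members, Sox9, Amh, Inhbb and Dhh, with log2 fold changes of -0.21, -0.42, -0.24 and -0.27. Dhh was the 1 member with every mouse of 14 dpp below every mouse of 12 dpp (0.687% of all genes).

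From 14 to 16 dpp 8 of the 10 genes fell, against 11.3% of all genes called lower. Kitl (-0.60) and Amh (-0.58) had the largest log2 fold changes, and Inha (-0.10, limma adjusted p = 0.586) and Fshr (-0.07, limma adjusted p = 0.663) did not pass. In 3 genes, Amh, Kitl and Dhh, every mouse of 16 dpp lay below every mouse of 14 dpp (7.35% of all genes). The calls of Inhbb and Gdnf at this step depended on single mice. Inhbb (-0.28, adjusted p = 0.0196) lost its call without mouse 2 or mouse 3 of 14 dpp or mouse 1 or mouse 2 of 16 dpp, with adjusted p-values of 0.0523, 0.0671, 0.0547 and 0.0509. Gdnf (-0.40, adjusted p = 0.0270) lost it without mouse 1 or mouse 2 of 14 dpp (0.0878 and 0.0843) or mouse 1, 2 or 4 of 16 dpp (0.0764, 0.0543 and 0.0532). Sox9 lost it with mice 1 to 3 only (adjusted p = 0.0741), and Inhbb and Gdnf also lost it without a filter on low genes (0.0572 and 0.0660) and with median-of-ratios factors (0.0703 and 0.0593).

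From 16 to 18 dpp all 10 genes fell, against 30.6% of all genes called lower. The log2 fold changes ran from -0.42 for Kitl (SE 0.114, limma adjusted p = 0.00334) to -0.79 for Amh (SE 0.137, limma adjusted p = 3.61e-05). Inha and Fshr, which had not passed any earlier step, fell here by 0.59 and 0.60 on the log2 scale. In 8 genes the mice of both ages did not overlap (12.4% of all genes), the exceptions being Inha and Kitl. Over all 6 ages, each of the 10 genes differed by the F test of limma, as did 77.6% of all genes.

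Mice of one age differed in the members together. Mouse 3 of 16 dpp was the highest of its age in all 10 genes, and mice 4 and 5 of 18 dpp held the highest value of their age in 3 and 7 genes. The members' summed TPM was 1657 in mouse 3 of 16 dpp against 1174 to 1481 in the other 4, and 1143 and 1077 in mice 4 and 5 of 18 dpp against 790.3 to 824 in mice 1 to 3. The sum of 25 other Sertoli genes moved the same way, with 15806 TPM in mouse 3 of 16 dpp against 12457 to 14556, and 11070.1 and 11059 TPM in mice 4 and 5 of 18 dpp against 8257 to 8371. Other ages also held mice set apart in the members. Mouse 7 of 14 dpp was the lowest of its age in 8 genes, and mice 6 and 7 lay below mice 1 to 3 of that age in 8 genes, with other Sertoli sums of 14410.2 and 13461 TPM against 16237 to 16404. Mouse 1 of 10 dpp was the highest of its age in 8 genes and mouse 5 the lowest in 7. Their other Sertoli sums of 16433 and 16379 TPM were both above the 15606 to 16338 TPM of mice 2 to 4. At 10 dpp that list thus did not separate the mice as the members did. Leaving out mouse 6 or mouse 7 of 14 dpp kept 8 members called from 14 to 16 dpp, and leaving out mouse 1 or mouse 5 of 10 dpp kept 7 from 10 to 12 dpp. Leaving out together mouse 3 of 16 dpp and mice 4 and 5 of 18 dpp, a choice made after the values were seen, kept the number of members called at 10 from 8 to 18 dpp, 8 from 14 to 16 dpp and 10 from 16 to 18 dpp. Barcodes of the libraries from 8, 10 and 12 dpp recur at 14, 16 and 18 dpp, while none repeats within the 3 earlier or the 3 later ages. The labels name no sequencing pool, and its part in the values was not tested.

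After each age's mean was subtracted, all 45 pairs of members were positively correlated across the 28 mice (Pearson's r of log2(TPM + 1), from 0.171 to 0.844, median 0.538). These are descriptions, since all genes of a mouse share its library. The share of positive pairs among all genes was not computed, so the count cannot be called particular to the members. Among the 9 genes most like a member there was 1 other member for Amh and for Inhbb, and 0 for each of the rest. The closest pairs were Amh with Inhbb (0.844), Wt1 with Kitl (0.840) and Gata4 with Inha (0.834), and the least alike were Sox9 and Inha. By the same measure, the gene of any kind most like each member was Zbtb46 for Sox9 (0.798), Wsb2 for Wt1 (0.911), Ormdl3 for Gata4 (0.937), Tmem200b for Amh (0.881) and Col18a1 for Inha (0.939). It was Nfil3 for Inhbb (0.866), Atrnl1 for Fshr (0.796), Mro for Gdnf (0.774), Jade1 for Kitl (0.884) and Gstm6 for Dhh (0.882). Mro is itself one of the 25 other Sertoli genes. The 5 genes most like the mean of the members were Wsb2, Etnk2, Adipor1, Maged1 and Zc3h7b, with r from 0.926 to 0.942.

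The 25 other Sertoli genes gave a comparison for the fall. Of these, 20 fell and 4 rose from 8 to 18 dpp (36.3% and 31.8% of all genes), with a median log2 fold change of -0.80. The largest falls were those of Hsd17b1, a steroid dehydrogenase (means of 15.7 and 2.02 TPM, log2 fold change -2.47), Krt18, a keratin of immature Sertoli cells (-1.86), and Rhox8, a homeobox gene (-1.66). Tsx, an X-linked gene also known from spermatocytes, rose by 3.48 on the log2 scale, and Rhox5 and Gata1, X-linked factors of maturing Sertoli cells, rose by 0.85 and 0.62. From 10 to 12 dpp, the step at which 7 members fell, 9 of these genes fell and 8 rose (9.39% and 12.0% of all genes). From 16 to 18 dpp 20 fell and 0 rose by limma, the same 20 and 0 as at an unadjusted p under 0.05, and the median of the list's summed TPM went from 13759.5 to 8371.

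Scaling each mouse to the mean log2(TPM + 1) of these 25 genes, a setting added after the values were seen, showed how far the members fell beyond the list. On that scale the median log2 fold change of all genes from 8 to 18 dpp moved from -0.09 to 0.52, and 11.1% of all genes were called lower and 55.2% higher, against 36.3% and 31.8% as deposited. Of the 10 members 9 were still called lower at 18 than at 8 dpp, from Inha with a log2 fold change of -0.38 (SE 0.0890, limma adjusted p = 0.000537) to Amh with -1.96 (SE 0.128, limma adjusted p = 3.73e-13). Fshr turned to 0.14 (SE 0.108, limma adjusted p = 0.245). From 10 to 12 dpp 8 members fell, Inha joining the 7 named above, against 9.59% of all genes called lower. The number was 5 from 14 to 16 dpp (Wt1, Gata4, Amh, Kitl and Dhh), against 2.10% of all genes, and 1, Amh, from 16 to 18 dpp, against 0.830% of all genes. At this last step Inhbb and Kitl turned to 0.04 and 0.07. The list was chosen from known Sertoli genes and holds genes that rose, so this scale is relative to the list and is not a count of cells.

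**Figure D3:**
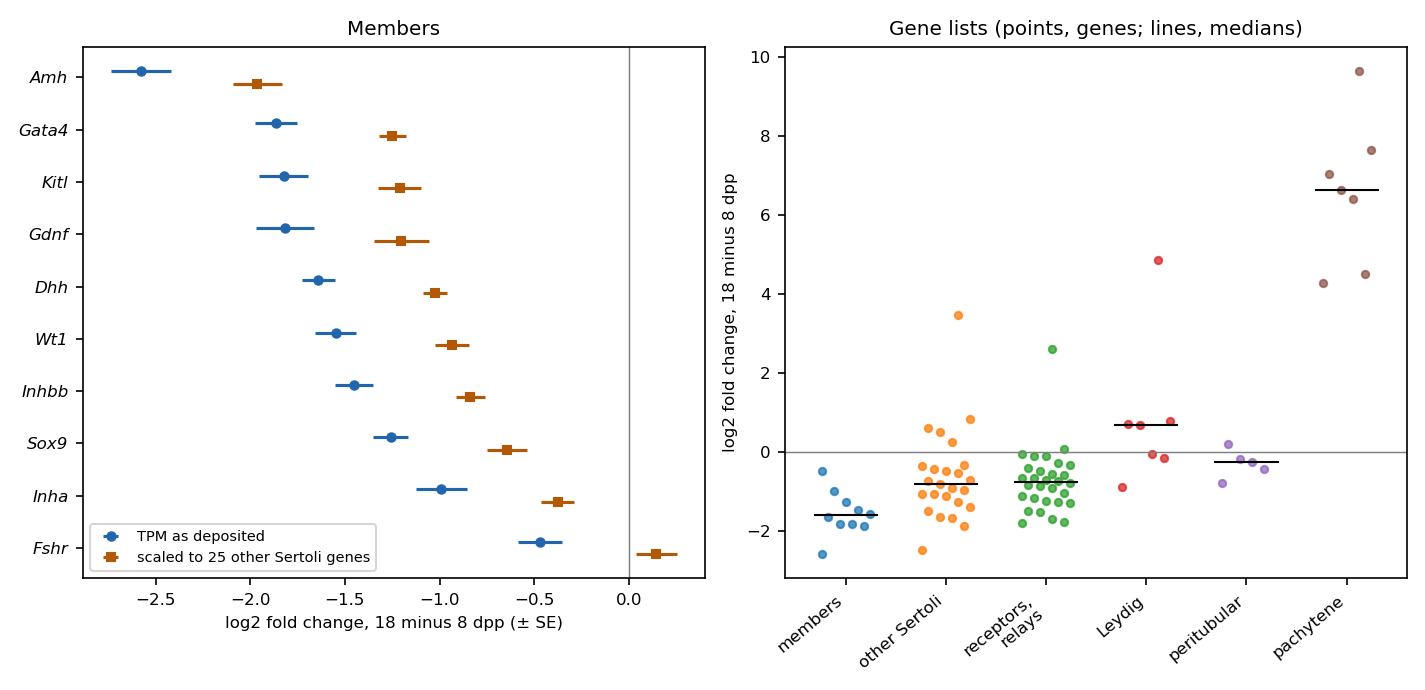
Left, log2 fold change from 8 to 18 dpp of each member with its standard error, on TPM as deposited (blue circles) and after scaling to 25 other Sertoli genes (orange squares); right, the log2 fold changes of the genes of 6 lists (points) with list medians (lines). The median of the members lies at -1.59 and that of the other Sertoli genes at -0.80, and Fshr alone crosses 0 after scaling.

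The receptors and signal relays of the members' pathways were followed as a list of 30 genes. From 8 to 18 dpp 23 of these fell and 1 rose (36.3% and 31.8% of all genes), with a median log2 fold change of -0.74. The largest falls were in Ptch1, the receptor of Dhh and a target of its signal (from 82.3 ± 2.78 to 23.5 ± 5.42 TPM, SD of 3 and 5 mice, log2 fold change -1.79, SE 0.126, limma adjusted p = 1.45e-12), in Smo, which relays hedgehog signals (-1.75), and in Smad3, which relays activin signals (-1.70). Crem, a cyclic AMP-responsive factor of germ cells, rose from 15.5 ± 0.508 to 103 ± 25.2 TPM (2.62, SE 0.213, limma adjusted p = 2.61e-11). Receptors of the ligands were picked out after their values were seen. Ret and Gfra1, which bind Gdnf, fell with log2 fold changes of -1.49 and -1.24, and Kit, the receptor of Kitl, fell with -0.85. Amhr2, the receptor of Amh, did not pass (-0.09, SE 0.0915, limma adjusted p = 0.391) and had means of 481 ± 25.1 TPM in the 3 mice of 8 dpp and 456 ± 72.8 TPM in the 5 mice of 18 dpp (SD), above Amh itself at both ages.

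The forms of Wt1 shifted along with its level. Transcripts with the 51-base exon made up 56.2%, 57.2% and 64.9% of Wt1 TPM in the mice of 8 dpp, taken over the 6 annotated transcripts that span it. They made up 34.3%, 45.3%, 32.3%, 30.3% and 32.6% in mice 1 to 5 of 18 dpp. Every mouse of 18 dpp lay below every mouse of 8 dpp, and mouse 2 was the highest of 18 dpp. In absolute terms, transcripts with the exon went from 198 ± 16.5 to 40.5 ± 4.87 TPM, and those without it from 135 ± 15.4 to 77.1 ± 16.9 TPM (SD, n = 3 at 8 dpp and 5 at 18 dpp). The 9-base end was in 60.3% ± 1.07 of the Wt1 TPM that could be assigned at 8 dpp and in 46.5% ± 4.02 at 18 dpp. Most of that difference was there by 12 dpp (50.3% ± 2.60, SD, n = 5). The 2 Wt1 segments were not independent, since the same 2 transcripts led both percentages. ENSMUST00000143043, which holds both segments, went from a mean of 51.4% of Wt1 TPM at 8 dpp to 31.9% at 18 dpp. ENSMUST00000139585, which holds neither, went from 32.8% to 49.9%.

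Kitl with the 84-base exon made up 70.7% ± 2.14 of the TPM of the 2 Kitl transcripts that span it in the 3 mice of 8 dpp (SD). At the later ages, each with 5 mice, it made up 72.0% ± 2.29, 72.4% ± 2.72, 71.3% ± 1.21, 76.4% ± 2.86 and 76.6% ± 3.44 in turn. The form with the exon stayed the major one at every age, and its percentages at 16 and 18 dpp lay above the highest mouse of 8 dpp in all 10 mice. Gata4 was spread over 4 transcripts of at least 1 TPM, and its leading one, ENSMUST00000118022, held 46.7% ± 3.70 at 8 dpp and 35.3% ± 6.77 at 18 dpp. The other 7 genes had 1 transcript each in the table. These percentages were estimated from reads shared among transcripts and were not tested.

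**Figure D4:**
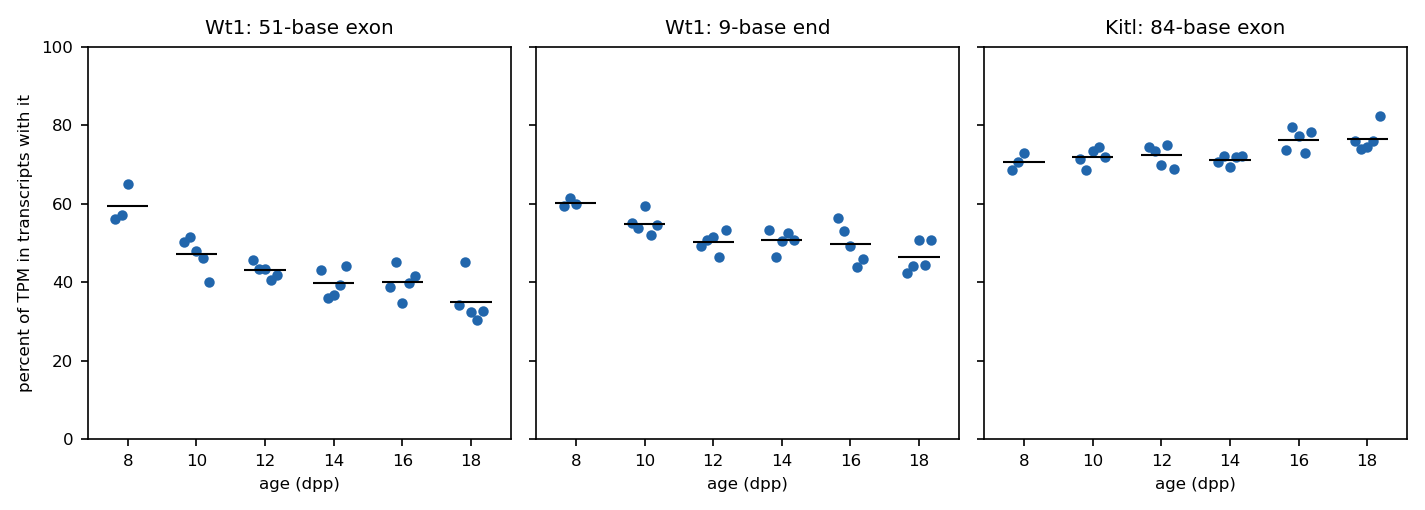
Percentage of a gene's TPM in transcripts that hold the Wt1 51-base exon, the Wt1 9-base end or the Kitl 84-base exon, by age in dpp, with 1 point per mouse and lines at means. The Wt1 exon falls from 59.5% at 8 dpp to 34.9% at 18 dpp, and the Kitl exon stays between 70.7% and 76.6%.

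The 250 bases before the RefSeq transcription start were searched for short motifs where a promoter was given. Whether such motifs bear on the members' levels was not tested. RefSeq (GRCm38.p6) held 7 promoters of 6 of the 10 genes, namely Inha, Inhbb, Kitl, Gdnf, Dhh and Fshr. Searched on both strands were 4 forms of the GATA motif, that is AGATAA with the related form AGATAG as well as the form TGATAA with its relative TGATAG, the E-box CACGTG, the nuclear receptor half-site AGGTCA and the SOX form AACAAT. In all 32851 promoters of this length these were found in 26.5%, 6.02%, 14.0% and 9.42%. Shown, with matches in capitals, are the promoters of Fshr, the member that fell least from 8 to 18 dpp, and of Inhbb, one of those that fell at 3 of the 5 steps. Fshr, on the minus strand at chr17:89200676-89200925, held an E-box 61 bases before the start. Inhbb, on the minus strand at chr1:119422249-119422498, held a GATA form on its opposite strand 27 bases before the start.
Fshr: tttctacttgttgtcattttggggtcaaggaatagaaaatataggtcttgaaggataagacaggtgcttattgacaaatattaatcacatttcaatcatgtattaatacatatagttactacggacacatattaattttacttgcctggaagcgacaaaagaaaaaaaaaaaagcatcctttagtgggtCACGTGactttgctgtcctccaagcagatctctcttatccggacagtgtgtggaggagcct
Inhbb: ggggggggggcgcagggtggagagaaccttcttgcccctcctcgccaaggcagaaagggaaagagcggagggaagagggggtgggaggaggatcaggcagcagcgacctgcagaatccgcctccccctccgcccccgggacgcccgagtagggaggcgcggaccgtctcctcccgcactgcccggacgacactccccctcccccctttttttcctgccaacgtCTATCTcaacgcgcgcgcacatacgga

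One Inha and one Gdnf promoter held the half-site, and the other Gdnf promoter held 2 GATA forms. The promoters of Kitl and Dhh held none of these letters. The RefSeq start lay 532 bases from the GENCODE start of the gene for Inha and 191 bases for Kitl. For Gdnf it lay 798 bases away in the promoter with the half-site and 2881 in the other. The stretch searched for Inha and that of the other Gdnf promoter thus lay inside the genes as placed above. A match is a run of letters only, and no binding was measured.

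In adult spermatocytes, all 10 genes were low. The adult table was deposited and normalized apart, so values are given side by side without a test. Inha had 29.6, 35.1, 30.6 and 40.9 TPM in adult samples 1 to 4, and Wt1 had 7.67, 9.61, 8.86 and 12.0 TPM. Gata4 had 3.95, 8.32, 7.47 and 7.57 TPM, and sample 1 was also the lowest in Wt1, Inha, Inhbb, Kitl, Sox9 and Dhh. Amh had 1.18, 1.05, 1.98 and 1.49 TPM, the mean being 1.43 ± 0.413 (SD, n = 4). The means of the rest were 5.10 ± 0.849 for Dhh, 5.03 ± 1.59 for Inhbb, 3.60 ± 0.895 for Kitl, 2.96 ± 0.967 for Sox9, 0.615 ± 0.263 for Fshr and 0.455 ± 0.129 TPM for Gdnf (SD, n = 4). As a percentage of the mean at 18 dpp, the adult mean was lowest for Amh (2.40%) and highest for Gdnf (11.9%), and for the other 8 genes it lay between 4.39% and 10.3%.

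The labels were checked against markers of the cells the preparations could hold. All 10 germ cell genes were detected at each age, with a summed TPM of 1145 to 1511 at 8 dpp and 2909 to 3137 at 18 dpp. Though the sum rose, 4 of these genes rose and 5 fell (limma), with a median log2 fold change of -0.40. The 8 pachytene genes went from 36.0 to 44.3 TPM in sum at 8 dpp to 2738 to 5108 TPM at 18 dpp. Sertoli genes were present beside the germ cell genes in every library labelled as germ cells. The members summed to 2370 to 2750.4 TPM at 8 dpp and 790.3 to 1143 TPM at 18 dpp. Of the 7 Leydig genes 4 rose and 0 fell from 8 to 18 dpp (limma), of 5 peritubular genes 1 fell, of 5 macrophage genes 4 rose, of 5 red blood cell genes none passed (0 also at an unadjusted p under 0.05), and of 4 endothelial genes 1 rose and 1 fell. Among all genes, 31.8% were called higher and 36.3% lower by the same test, the shares beside which the counts of every list here stand. The counts of Leydig and macrophage genes were the same at an unadjusted p under 0.05.

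The peritubular sum was 1051 to 1160 TPM at 8 dpp and 524 to 1034 at 18 dpp, led by Acta2, and the Leydig sum was 175 to 199 and 200.1 to 552 TPM, led by Insl3. Macrophage genes, led by Lyz2, summed to 26.4 to 33.3 and 39.7 to 78.6 TPM, endothelial genes, led by Cdh5, to 50.2 to 56.6 and 31.8 to 65.2 TPM, and red blood cell genes, led by Hbb-bs, to 243 to 681 and 249.8 to 367 TPM. Adult samples had Leydig sums of 214 to 282 TPM. Their peritubular, macrophage, endothelial and red blood cell sums were each at most 10.7 TPM. The 25 other Sertoli genes summed to 732 to 1079 TPM in adult samples, and the members to 54.5 to 83.5 TPM. Hbb-bs was listed at 0 in all 4 adult samples, as were Inhba, Gli2 and Hhip of the Sertoli and receptor lists. The 6 spermatid genes summed to 862 to 1171 TPM in adult samples, where the juvenile mice had at most 6.44 TPM. The part of these other cells in the members' levels was not tested.

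**Figure D5:**
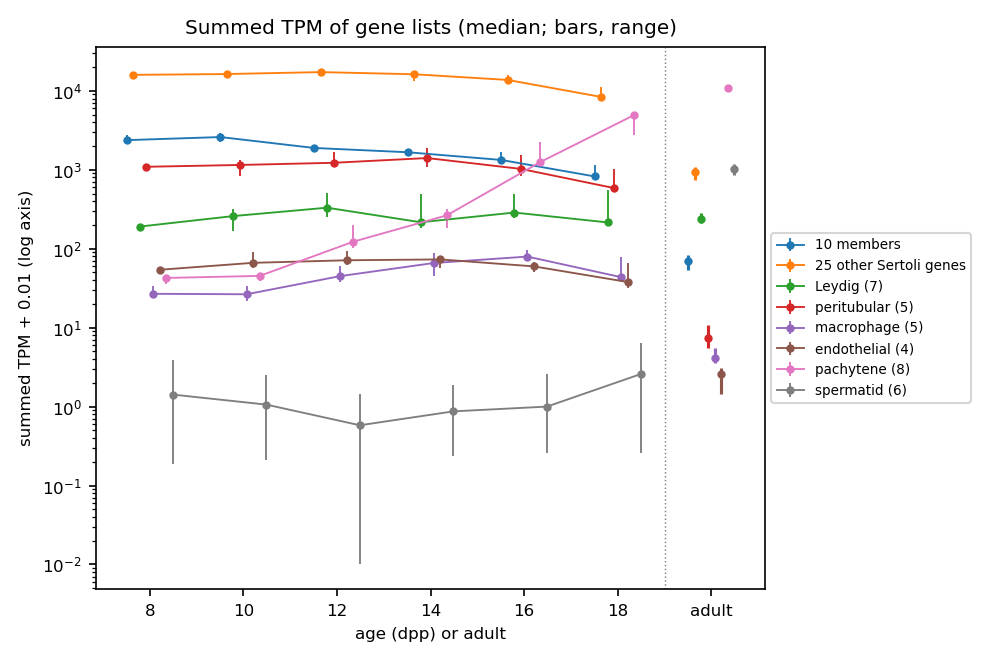
Summed TPM (log axis, with 0.01 added) of the 10 members and of marker lists by age in dpp and in adult samples, as medians with bars from the lowest to the highest sample. The members fall from 8 to 18 dpp while the pachytene genes rise to 2738 to 5108 TPM at 18 dpp, and the adult samples, right of the dotted line, are high in pachytene and spermatid genes.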

How the data were processed

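Poly-A RNA of germ cells from 28 juvenile mice and of 4 adult spermatocyte samples was sequenced as 100 bp paired ends. The authors filtered reads by quality, mapped them with Bowtie 1.0.0 against Ensembl 75, NONCODE and piRNA precursor transcripts (the submitters' processing notes name genome build mm10), and deposited TPM estimated with RSEM 1.2.8. TPM was held by the deposited transcript table and by the adult table. The deposited juvenile gene table held a score, exp(log2(TPM + 1)) - 1, which was converted back to TPM, and the members then differed by at most 0.02 TPM from their summed transcripts. The table's 20368 genes reach 3 TPM in at least 1 mouse. Columns of the authors' own substage assignment were not used.

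limma 3.58.1 (R 4.3.3) was used to compare ages on log2(TPM + 1), so fold changes understate those of low genes, with a prior variance that follows mean expression, a mean for each age and Benjamini-Hochberg adjustment over all genes, at 0.05. Each mouse was 1 sample. On simulated data of 20368 genes for 18 against 8 dpp, 89% of log2 changes of 1 and 100% of those of 2 were recovered, and 5.03% of calls were false. The simulation drew genes independently with normal noise and changed few of them, none of them low. In the data the genes of a mouse share its library and far more genes were called, so these rates may not hold there. Genes were placed with GENCODE M21.

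The members and lists were chosen with earlier results of these data known. Named were all members, the 3 largest rises and falls from 8 to 18 dpp past the threshold in the lists of other Sertoli genes and of receptors, the highest gene of every other list and genes at 0, and the genes most like each member. Etv5 is in both of the first 2 lists, and Kit also in the germ cell list. TPM depth is unknown.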

Additional observations from a re-analysis of the deposited data

Results flagged for a closer look

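Of 60 sets of values (the 10 genes in each age of 5 mice and in the 4 adult samples), 2 held a mouse that stood apart from its group by Dixon's test, where chance alone gives about 1 in 20. Both were at 10 dpp. Fshr was 25.6 TPM in mouse 4, and the other 4 mice lay between 20.96 and 22.1 TPM. Gdnf was 18.2 TPM in mouse 1, and the other 4 mice lay between 14.5 and 15.4 TPM.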

How the results depend on the processing

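From 8 to 18 dpp, and over all ages, all 10 members kept their call and direction under the alternatives that changed pseudocounts, filters, normalizations, summed transcripts, the variance trend, the use of mouse numbers or 1 mouse left out. Their log2 fold changes then ranged from -2.77 to -2.40 for Amh and from -0.59 to -0.30 for Fshr. The median of all genes was -0.09, against 0.05 with median-of-ratios factors and -0.26 with quantile normalization, and relative to it Fshr was at -0.38, -0.35 and -0.33 and Amh at -2.48, -2.45 and -2.30.

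Same-numbered mice of different ages did not deviate together (57 pairs, median r 0.0147, 3 above 0.1), so the numbers do not pair the mice. With the mouse number as a replicate block, all-gene calls were 131 from 8 to 10 dpp (245 without it) and 0 from 12 to 14 dpp (35 without it), Inha turned to -0.032 at the first step and Fshr and Gdnf to 0.017 and 0.0061 at the second, and the members' calls were the same in number.

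From 12 to 14 dpp all-gene calls were 7 without a filter, 16 with median-of-ratios factors, 12 with quantile normalization, 1 with mice 1 to 3 only, 23 scaled to the other Sertoli genes and 140 without mouse 3 of 16 dpp and mice 4 and 5 of 18 dpp. From 8 to 10 dpp they were 121 and 419 under the last 2 settings, and 1 member was called with mice 1 to 3 only. Scaling to the other Sertoli genes gave 2974 all-gene calls and 5 member calls from 14 to 16 dpp and 1 member call from 16 to 18 dpp. With 1 mouse left out, all-gene calls lay between 106 (without mouse 1 of 8 dpp) and 288 from 8 to 10 dpp and between 2 (without mouse 4 of 12 dpp or mouse 1 or 6 of 14 dpp) and 129 (without mouse 3 of 12 dpp) from 12 to 14 dpp, and 6 to 8 members were called from 14 to 16 dpp.

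Signs turned in these cases, none of which passed the test. From 8 to 10 dpp Amh turned to 0.059 and Gdnf to 0.024 with mice 1 to 3 only, and Inha to -0.017 and Gdnf to 0.013 with the mouse set as covariate. Scaled to the other Sertoli genes, Inha turned to -0.015 there, Fshr to 0.0083 from 12 to 14 dpp, and Inha to 0.029 and Fshr to 0.057 from 14 to 16 dpp, while Fshr from 8 to 18 dpp turned to 0.14 and Inhbb and Kitl from 16 to 18 dpp to 0.039 and 0.071. With mice 1 to 3 only, Fshr and Gdnf turned to 0.061 and 0.037 from 12 to 14 dpp. With 1 mouse left out, the ranges from 8 to 10 dpp were -0.17 to 0.046 for Amh, -0.094 to 0.034 for Dhh, -0.17 to 0.13 for Gdnf and -0.0041 to 0.14 for Inha, and from 14 to 16 dpp -0.15 to 0.013 for Fshr. The cause was not tested. The unknown depth limits what can be said of Gdnf and Fshr in adult samples, where they reached at most 0.57 and 1 TPM.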
